A study of Drosophila melanogaster with 2 samples.

Results

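The genes described here encode the Rab and Arf families of small GTPases of Drosophila melanogaster. They were chosen by gene name, as protein-coding genes outside chromosome 4 that are called Rab, RabX, Arf or Arl with a number, or Sar1. The rule found 42 of 13888 protein-coding genes outside chromosome 4. Of these 42, 41 encode GTPases, and 1, Rab3GAP1, encodes a GTPase-activating protein that the name pattern also takes in. On chromosome 4, 2 further genes with such names, Arf4 and Arl4, were left out by the rule. The chromatin protein MBD-R2, which belongs to the NSL complex (named for its non-specific lethal mutants), was mapped by ChIP-seq with an anti-GFP antibody in whole embryos aged 0 to 24 h. All embryos came from a strain with an MBD-R2-eGFP insertion, and the promoter that drives the fusion is not stated. There is 1 group of 2 biological replicates, so nothing is compared between conditions, and control libraries were not analysed here. Whole embryos mix all tissues, and a ChIP-seq peak list holds no expression values, so the tissue could not be checked against marker genes.

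Rab and Arf GTPases switch between a GTP-bound form that sits on a membrane and a GDP-bound form that is released from it. Each marks one kind of membrane and recruits the tethers, coats and motors that move vesicles from it. Guanine nucleotide exchange factors (GEFs) switch them on and GTPase-activating proteins (GAPs) switch them off. Some act in every cell, such as Rab1 between the endoplasmic reticulum (ER) and the Golgi, and others act mainly in one tissue, such as Rab3 at synapses. The NSL complex is known for binding at promoters of broadly expressed genes in flies, many of which carry the DNA replication-related element (DRE), the site of the factor Dref. The members were sorted by general knowledge of the fly genes and not by values of these data, but with earlier results of these data known. The classes hold 21 housekeeping, 8 tissue-restricted, 6 lineage-specific and 6 unclassified GTPases, with Rab3GAP1 kept apart. The lineage-specific class holds the Rab9D-like copies and RabX2, which all lie between positions 10417429 and 10952486 of the X chromosome.

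Sequences of 5 promoters show the letters that the results return to. Each runs 5′ to 3′ on the gene's own strand, from 250 bases before the 5′-most transcription start site (TSS) to 50 bases from it on (dm6, RefSeq copy of the assembly). Capitals mark matches to the DRE (TATCGATA), Motif 1 and Motif 7, core promoter motifs of broadly expressed fly genes. Rab7 (chr3R:23992758-23993057, plus strand) and Rab14 (chr2L:14354895-14355194, plus strand) are housekeeping and carried an MBD-R2 peak. Rab27 (chrX:1476925-1477224, minus strand) is tissue-restricted and carried one too, with a summit nearer to the TSS of the neighbouring gene mei-38. RabX4 (chr3R:24828360-24828659, minus strand) and Rab9D (chrX:10588839-10589138, plus strand) carried none in the main list.
Rab7: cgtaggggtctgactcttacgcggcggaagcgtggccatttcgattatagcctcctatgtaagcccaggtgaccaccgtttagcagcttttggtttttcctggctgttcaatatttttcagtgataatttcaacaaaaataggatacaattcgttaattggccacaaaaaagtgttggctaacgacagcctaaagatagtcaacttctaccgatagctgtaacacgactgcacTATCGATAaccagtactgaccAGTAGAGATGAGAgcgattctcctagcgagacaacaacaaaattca
Rab14: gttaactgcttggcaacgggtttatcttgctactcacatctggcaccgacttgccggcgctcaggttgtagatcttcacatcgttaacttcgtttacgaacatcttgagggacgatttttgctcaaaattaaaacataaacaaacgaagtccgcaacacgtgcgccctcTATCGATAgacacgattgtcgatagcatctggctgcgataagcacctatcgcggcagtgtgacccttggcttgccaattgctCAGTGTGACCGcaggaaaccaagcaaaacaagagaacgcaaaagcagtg
Rab27: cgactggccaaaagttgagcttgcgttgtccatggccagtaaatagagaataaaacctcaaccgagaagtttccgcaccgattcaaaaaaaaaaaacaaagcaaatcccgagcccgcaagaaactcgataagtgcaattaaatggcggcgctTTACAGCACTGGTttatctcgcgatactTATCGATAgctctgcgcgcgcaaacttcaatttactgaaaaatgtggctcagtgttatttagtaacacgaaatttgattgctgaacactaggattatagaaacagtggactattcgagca
RabX4: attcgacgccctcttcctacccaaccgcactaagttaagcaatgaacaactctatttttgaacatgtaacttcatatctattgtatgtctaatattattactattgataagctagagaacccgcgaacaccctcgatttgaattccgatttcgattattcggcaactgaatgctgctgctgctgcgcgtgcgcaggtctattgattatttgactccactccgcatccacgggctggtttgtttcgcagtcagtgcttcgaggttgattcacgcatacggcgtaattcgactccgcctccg
Rab9D: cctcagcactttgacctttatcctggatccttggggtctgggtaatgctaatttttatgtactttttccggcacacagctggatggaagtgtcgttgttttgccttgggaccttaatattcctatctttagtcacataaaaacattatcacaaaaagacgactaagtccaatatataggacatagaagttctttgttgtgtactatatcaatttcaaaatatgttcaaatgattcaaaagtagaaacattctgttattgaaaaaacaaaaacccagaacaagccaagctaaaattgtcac
The first 3 each hold a DRE, with Motif 7 in Rab7 and Rab27 and with Motif 1 in Rab14. The last 2 hold no match to any of the 3 motifs.

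MBD-R2 was found at most of these promoters. A gene is called bound when the main peak list, made by the authors from both replicates, has a summit no farther than 500 bp from any annotated TSS of that gene. By this call 28 of 42 members were bound (66.7%), where 44.1% of all protein-coding genes outside chromosome 4 were. Signal below is the authors' value for the strongest such peak. Its scale is not stated, the depth of the libraries is unknown, and the replicates' own values are not normalised to each other. The median signal of the 28 was 203.5, beside 170.6 over all 6126 bound genes, and 16 of the 28 lay above the median of all bound genes. Of the 28, 21 were also bound in the separate lists of both replicates (75%), beside 73.0% of all bound genes. No test was made of these shares, because the members were chosen with earlier results of these data known.

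Housekeeping members were bound in most cases and tissue-restricted members in about as many cases as not. Of the 21 housekeeping members 19 were bound (90.5%), all but Rab9 and Rab35. Of the 8 tissue-restricted members 4 were bound (50%), close to the 44.1% of all genes. None of the 6 lineage-specific copies was bound, and 4 of the 6 unclassified members were. In the list of replicate 2 alone these counts were 17, 4, 0 and 5, beside 43.5% of all genes, and in that of replicate 1 alone 15, 2, 0 and 5, beside 33.4%. In the conservative list, also made from both replicates, they were 16, 3, 0 and 5, beside 39.8%. The difference between the classes was not tested, because the classes too were chosen with earlier results of these data known. The bound housekeeping members had a median signal of 202.2 and the bound tissue-restricted members one of 149.1, with ranges of 60.2 to 919.8 and 67.6 to 204.9 that overlap.

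**Figure D1:**
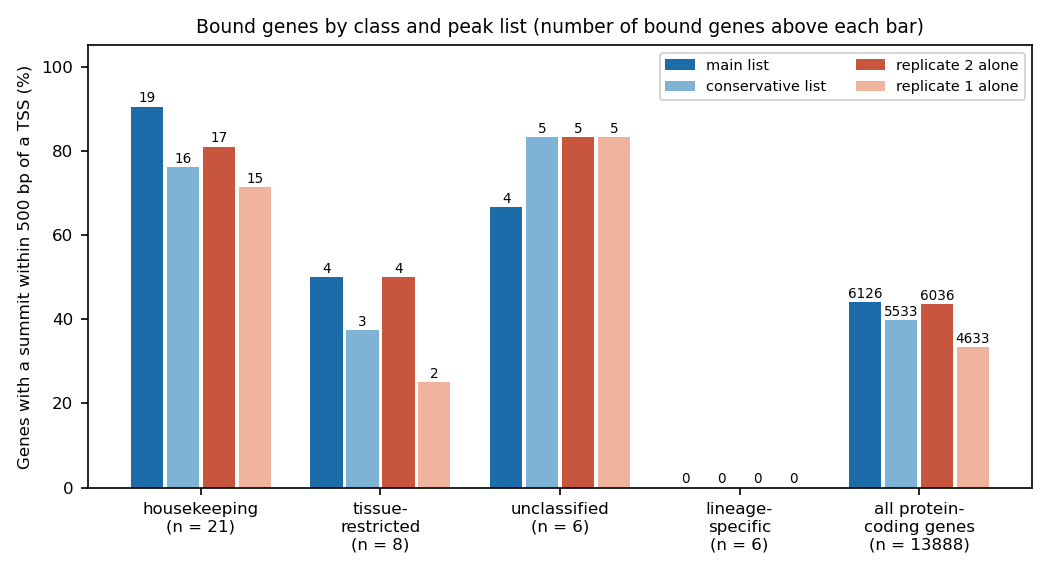
Share of genes with a summit within 500 bp of a TSS (vertical axis, percent) for the 4 classes of GTPases and for all protein-coding genes outside chromosome 4, in 4 peak lists; numbers of bound genes stand above the bars. Housekeeping members reach 71.4% to 90.5% in every list, while all genes reach 33.4% to 44.1% and the lineage-specific class stays at 0.

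GTPases of the early secretory pathway and the Golgi ranged from the strongest to nearly the weakest peaks of the family. Arl1, which recruits golgin tethers to the trans-Golgi, had a signal of 919.8 in the main list, with 308 in replicate 1 and 596 in replicate 2. That is above 99.6% of all bound genes, and both replicates placed it first in the family. Its peak (chr3L:15982813-15983187, dm6) had its summit 132 bp upstream of the TSS of Arl1 and 134 bp from that of brm, the ATPase of the Brahma chromatin remodeller, about equally far from both genes. Rab2, which acts at the Golgi and in delivery to lysosomes, had 455, with 218 in replicate 1 and 240.5 in replicate 2 (chr2R:6696571-6696865). Arl5, also of the trans-Golgi, had 350.1, with 127 and 215 (chr3L:8299808-8300173). All 3 lay well above the 170.6 of the median bound gene. Rab1, which acts between ER and Golgi, had 202, with 67.7 and 134, and Arf1, which recruits the COPI coat, had 196, with 88.4 and 124. Sar1, the GTPase of the COPII coat that drives export from the ER, stood at the other end with 62.0. Its replicates had 28.2, below the threshold in replicate 1, and 37.1 in replicate 2. Rab18, of the ER and lipid droplets, had 232, with 96.0 and 144, and Rab6, a Golgi GTPase, had 104.6, with 44.5 and 58.0. The Rab6 peak passed the threshold in replicate 1 alone and just missed it in replicate 2, where its −log10 IDR was 1.90 and the threshold is 2. The IDR (irreproducible discovery rate) measures how steadily a peak ranks between compared lists, and the thresholded lists hold peaks at an IDR of at most 0.01.

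Endosomal and lysosomal members also ranged widely. Rab14, of endosomes and phagosomes, had a signal of 263, with 133 in replicate 1 and 137 in replicate 2 (chr2L:14355040-14355279). Rab7, the main GTPase of late endosomes, had 246, with 114 and 133 (chr3R:23992849-23993073), and Arl8, which links lysosomes to motors, had 236, with 57.6 and 172 (chr3R:8126304-8126580). The replicates differed most for Arl8: the ratio of replicate 2 to replicate 1 was 2.99, the highest of 27 bound members with values in both, where the median member had 1.48 and the median bound gene 1.63. Its replicate 1 peak did not pass the threshold. Rab5, of early endosomes, had 151, with 54.6 and 106, and Rab21, also of early endosomes, had 124, with 52.3 and 66.5. The recycling GTPases Rab4 and Rab11 were among the 4 weakest bound members, with Sar1 and Rab32. Rab4 had 70.35, with 38.4, below the threshold, in replicate 1 and 54.7 in replicate 2. A stronger main-list peak, of 152.7, lay farther than 500 bp but within 1000 bp of the Rab4 TSS. Rab11 had 60.2 in the main list, with no peak of any rank at its promoter in replicate 1 and one of 45.8 below the threshold in replicate 2. So the call for Rab11 rests on the main list alone. Arf6, which acts at the plasma membrane in endocytosis and recycling, had 81.2, with 55.9 and 34.2, the lowest ratio of replicate 2 to replicate 1 among the members, 0.612.

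The remaining bound housekeeping members were Rab8, Rab10 and Arl2. Rab8, of transport to the plasma membrane, had a signal of 421, with 163 in replicate 1 and 255 in replicate 2. Rab10, known in flies for secretion of basement membrane, had 148, with 70.4 and 74.4. Its summit lay 182 bp upstream of Rab10 and 63 bp from the TSS of CG17068. Arl2, a factor of tubulin folding, had 295, with 114.6 and 169 (chr3R:8340952-8341177). Rab2 was higher than Rab8 in replicate 1 and lower in replicate 2, so their order is within the spread between replicates. The unbound housekeeping members were Rab9, of transport between late endosomes and Golgi, and Rab35, of recycling and actin. Rab9 had a peak of 32.7 before thresholding (−log10 IDR 1.24), seen at 21.9 in replicate 2 and not in replicate 1 (chr2L:19432453-19432892, summit 99 bp downstream of the TSS). Rab35 had one of 87.5 before thresholding, higher than the called peaks of Arf6, Rab4, Rab32, Sar1 and Rab11. Its −log10 IDR was 0.182, and it had 24.5 and 45.6 in the replicates. Its summit lay 14 bp downstream of the TSS (chrX:20159638-20160077). Beside the bound members, then, Rab35 had a promoter peak of lower signal than most, and it missed the threshold on its IDR. In the rankings, which hold peaks below the threshold too, 76.9% of all genes had a peak in that of both replicates, 62.5% in that of replicate 1 and 72.2% in that of replicate 2, and 38, 32 and 36 of the 42 members did.

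**Figure D2:**
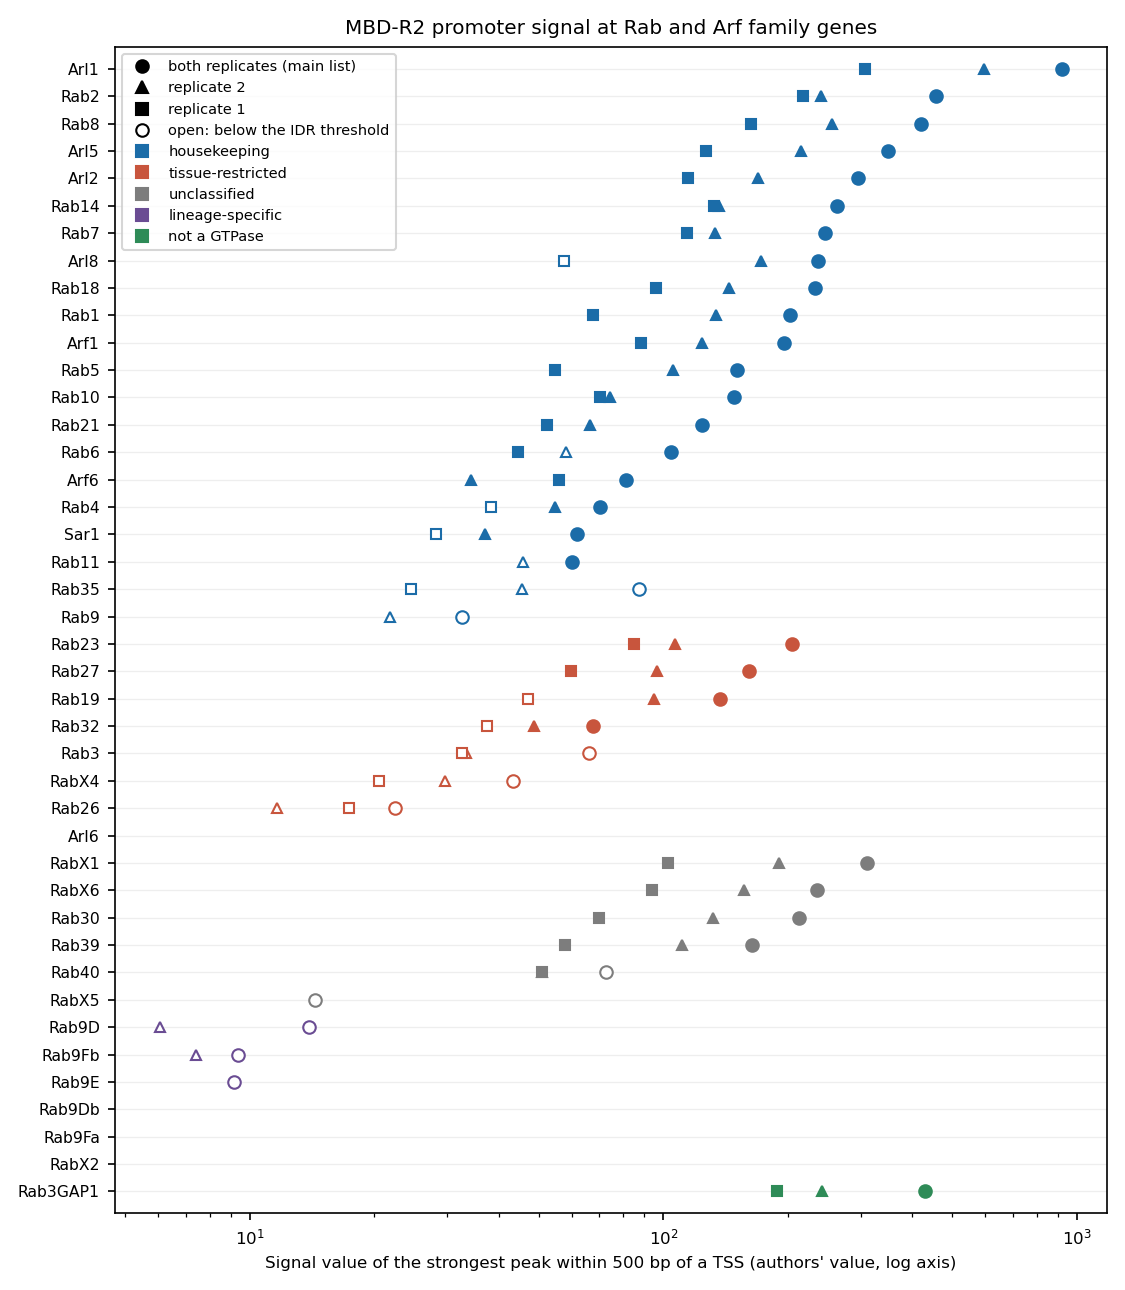
Signal of the strongest peak within 500 bp of a TSS (horizontal log axis, the authors' value) for all 42 members, by class, in the main list (circles), replicate 2 (triangles) and replicate 1 (squares); open symbols are peaks below the IDR threshold, and a missing symbol means no peak. Housekeeping members run from Arl1 at 919.8 down to Rab11 at 60.2 and the unbound Rab9, and the lineage-specific copies have at most open symbols under 14.

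The bound tissue-restricted members were Rab23, Rab27, Rab19 and Rab32. Rab23, known for Hedgehog signalling and planar polarity, had a signal of 205, with 85.1 in replicate 1 and 107 in replicate 2 (chr3R:5685712-5685930). Its summit lay 429 bp upstream of Rab23 and 8 bp from the TSS of plx, which encodes a Rab GAP relative. Rab27, a GTPase of regulated secretion, had 161, with 59.7 and 96.4 (chrX:1476980-1477142), and its summit lay 100 bp upstream of its own TSS and 11 bp from that of mei-38, a spindle protein. Rab19 had 137, with 47.1, below the threshold, and 95.0 (chr3L:8296989-8297428). Its summit lay 40 bp downstream of one of its own TSSs with no other coding TSS within 500 bp. Rab32, of pigment granules in the eye, had 67.6, with 37.5, below the threshold, and 48.5 (chr2R:9186112-9186551), 10 bp from its own TSS. Of the 4, then, Rab19 and Rab32 had summits nearest to themselves.

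The neuronal members Rab3, Rab26 and RabX4 and the ciliary member Arl6 were not bound, but they differed in what lay below the threshold. Rab3, which controls release at synapses, had a peak of 66.2 with a −log10 IDR of 1.96, just under the threshold of 2, and 32.5 and 33.2 in the replicates (chr2R:10729013-10729452, summit 30.0 bp upstream). That is more signal than the called peaks of Sar1 and Rab11 had. RabX4 had 43.3 (−log10 IDR 1.38), with 20.5 in replicate 1 and 29.6 in replicate 2 (chr3R:24828088-24828527). Rab26, of synaptic vesicles, had 22.4 (0.0595), with 17.4 and 11.6 (chr3L:21322026-21322465). The Rab26 summit lay 135 bp upstream of an internal TSS, not at the 5′-most one. Arl6, a partner of the ciliary BBSome, had no peak in any of the 3 rankings used, so its promoter is the one tissue-restricted promoter with none. Absence there holds at an unknown depth.

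The lineage-specific copies were nearly empty. Rab9Db, Rab9Fa and RabX2 had no promoter peak before thresholding, and Rab9D (13.9), Rab9Fb (9.36) and Rab9E (9.13) had peaks with a −log10 IDR of 0.0595 each. The Rab9D-like genes are related copies, so reads that match several of them may have been lost or split before peaks were called, which was not tested. Of the 13 members on the X chromosome 5 were bound (38.5%), beside 47.4% of all X-linked genes, and without the lineage-specific copies 5 of 7 were.

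Of the unclassified members the 4 bound ones lay between 164 and 311. RabX1 had a signal of 311, with 102 in replicate 1 and 190.03 in replicate 2 (chr2R:23523581-23523931), RabX6 had 236, with 93.6 and 156, and Rab30, a Golgi GTPase, had 213, with 70.0 and 132. Rab39, linked to late endosomes and lysosomes, had 164, with 57.8 and 111. RabX5 had a peak of 14.3 in the main ranking and none in either replicate. Rab40, whose vertebrate relatives carry a SOCS box, was called in the conservative list and in the lists of both replicates (51.0 and 50.8) but not in the main list. In the ranking behind the main list its peak had the same 72.8 as in the conservative list and a −log10 IDR of 0.116. The GAP subunit Rab3GAP1 had 429, with 188 and 242 (chr2L:1611040-1611516), and its summit lay 109 bp upstream of its TSS and 144 bp from that of CG14352.

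Most of the bound members shared their peak with another gene. In 20 of the 28 the strongest summit also lay within 500 bp of a TSS of another protein-coding gene (71.4%), beside 50.9% of all bound genes, and in 12 of the 28 that other TSS was the nearer one (42.9%), beside 24.1%. In all 20 the other gene lay on the opposite strand. When a summit counted only for the nearest coding TSS, 17 of 42 members were bound (40.5%), beside 35.7% of all genes, a smaller gap than with every TSS in reach. Divergent neighbours, whose 5′-most TSS starts at most 500 bp upstream on the other strand, were found for 21 of the 42 members (50%), beside 25.0% of all genes. Of these 21, 20 were bound (95.2%), beside 81.4% of all genes with such a neighbour, and Rab40 with its neighbour CG42258 was the exception. Of the 21 members without one 8 were bound (38.1%), beside 31.7% of all such genes. All 13 housekeeping members with a divergent neighbour were bound, and 6 of the 8 without one were, namely Rab1, Rab4, Rab11, Rab18, Sar1 and Arf1. Of the 8 tissue-restricted members 2 had a divergent neighbour (25.0%), beside 61.9% of the housekeeping members. Those 2 were bound, and so were 2 of the 6 tissue-restricted members without one. How far the classes differ through this arrangement was not tested. 

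The pairs differed in spacing. The TSSs of Arl2 and COX7A, a subunit of cytochrome c oxidase, lay 57 bp apart, and the summit was 16 bp from COX7A and 41 bp from Arl2. Rab14 and l(2)34Fd were 60 bp apart, Rab8 and Usp32, a ubiquitin-specific protease, 61 bp, Rab2 and Mob4 78 bp, Rab21 and Coa7 86 bp, and Rab7 and Epp 92 bp. At these pairs the summit lay at most 57 bp from either TSS. Among wider pairs, the summit lay at similar distances from both genes in some, such as Arl1 and brm, 266 bp apart, Rab3GAP1 and CG14352, 253 bp apart, and RabX1 and mi, 243 bp apart, with the summit 141 bp from RabX1 and 102 bp from mi. In others it lay nearer to one. The Arl5 summit lay 183 bp upstream of Arl5 and 42 bp from CG13671, that of Arl8 195 bp upstream and 53 bp from CG9667, and that of Arf6 375 bp upstream and 45 bp from CG8155. Conversely the Rab6 summit lay 16 bp from Rab6 and 317 bp from Phae1, and that of RabX6 54 bp from RabX6 and 490.0 bp from CG32483. Over all 28 the median distance of the summit to the member's own TSS was 59 bp (range 7 to 429), beside 67 bp over all bound genes.

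**Figure D3:**
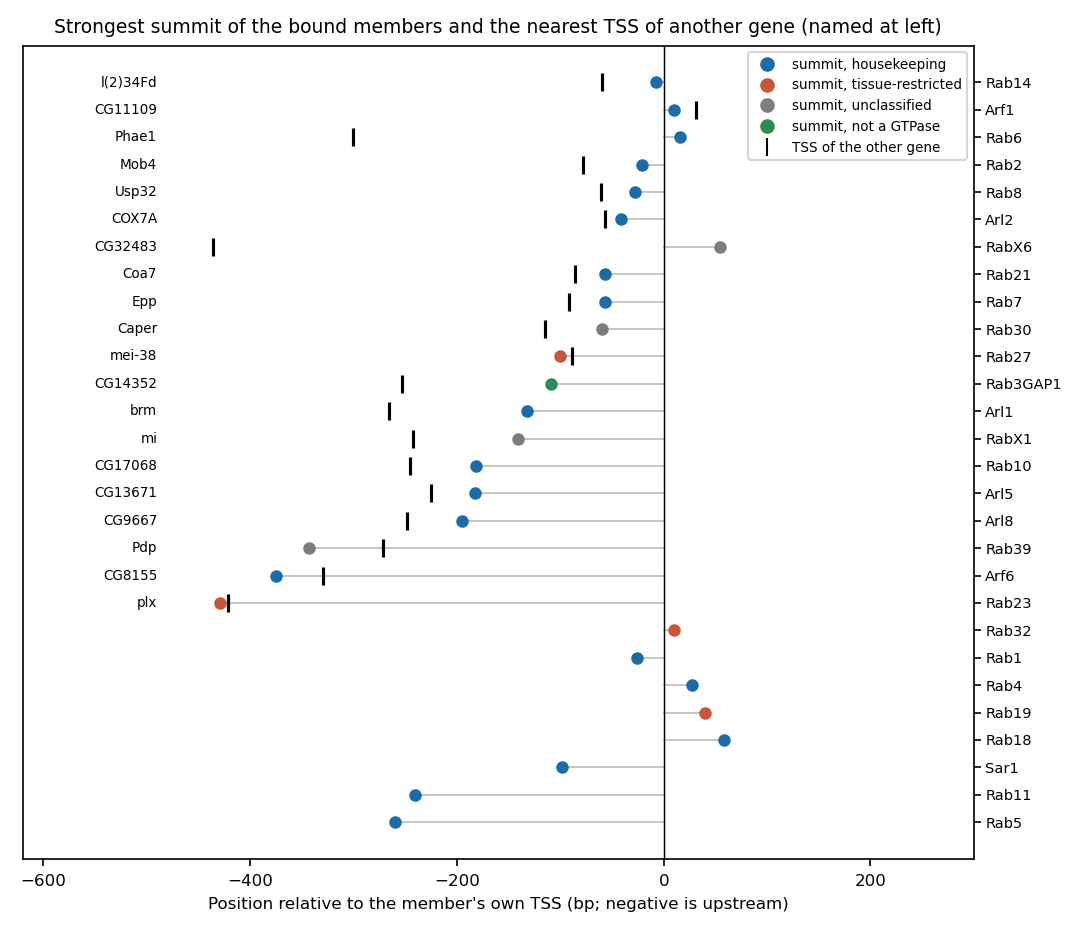
Position of the strongest summit (dots, coloured by class) relative to the nearest own TSS of each of the 28 bound members (horizontal axis, bp, negative is upstream), with the TSS of the nearest other protein-coding gene within 500 bp of the summit (black ticks, gene named at left). In 20 members there is such a gene, and for Arf6, Rab23, Rab39 and Rab27 the summit lies beyond its TSS.

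A few members had more than 1 peak. Of the 28, 4 had several within 500 bp of their TSSs (14.3%), beside 21.6% of all bound genes. Rab5 had 3, of 151, 127 and 59.7, and the strongest lay 1509 bp downstream of the 5′-most TSS, 260.0 bp upstream of an internal one. Its 5′-most promoter, 72 bp from that of Axud1, carried the peak of 127. Arf1 had a peak of 196 at its 5′-most TSS, one of 108.8 located 1125 bp downstream of it and one of 15.3 located 891 bp downstream, and Rab21 had 124 and 117. Rab19 had a second peak of 39.3. Inside genes and away from their TSSs, Rab11 had a peak of 142 located 1796 bp downstream of its TSS (chr3R:21112984-21113423), stronger than its promoter peak of 60.2. Sar1 had one of 64.0 and Rab32 had 2, of 40.6 and 34.5.

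The share of bound members with a DRE was above that of all bound promoters, while among unbound members it rested on 2 genes. The DRE was found, on both strands, in 12 of the 28 bound members (42.9%) and in 2 of the 14 others (14.3%). These 2 are Rab35 and Rab40, and Rab40 was called in the lists of both replicates. Of all promoters of this length 9.36% hold it, 17.9% of those bound and 2.6% of those not bound. Its inner 6 letters, ATCGAT, which the DRE contains, were in 19 of 28 bound members (67.9%) and 4 of 14 others (28.6%), beside 36.8% of all bound and 12.5% of all unbound promoters, and 23.3% of all promoters. Motif 7 was in 9 of 28 bound members (32.1%) and in none of the others, beside 16.2% of all bound and 3.9% of all unbound promoters, and 9.32% of all promoters. Motif 1 was in Rab14 and Sar1 and is in 4.49% of all promoters, and Motif 6 was in Arf6 and is in 2.22%. The E-box core CAGCTG was in 5 of 28 bound members (17.9%) and 2 of 14 others (14.3%), beside 25.1% of all bound and 11.9% of all unbound promoters, and 17.7% of all promoters. A TATA box (TATAAA, sense strand, starting 40 to 15 bp upstream) was in none of the 42, beside 2.06% of all bound, 12.9% of all unbound and 8.13% of all promoters. GAGAGAG was in Rab26 alone, beside 5.86% of all promoters.

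In these members the DRE lay close to the summits, but the same distance was not measured over all bound genes. Motifs were searched, and summits counted, only near a TSS, so some closeness is built in. In the 12 bound members that hold it, its centre was a median of 39 bp from the strongest summit (range 14 to 207), and in 10 of them at most 100 bp. In the Rab7 promoter printed above it starts 17 bp upstream of the TSS, 44 bp from the summit by its centre. In that of Rab27 it starts 70 bp upstream, 34 bp from the summit. The TSS of mei-38 lies 89 bp upstream of that of Rab27, so this DRE is nearer to mei-38. Among the members with a DRE were Arl2, Arl5, Arl8, Rab2, Rab6, Rab7, Rab14, Rab19, Rab27, Rab30 and RabX6, and, not bound, Rab35 and Rab40. Rab35 holds 2, at positions -170 and -12 from the TSS. Among members with a DRE 12 of 14 were bound (85.7%), beside 84.5% of all genes with one. Among those without, 16 of 28 were (57.1%), beside 39.9%. Arl1, the strongest, holds none of the motifs searched. A match is a string of letters and does not show that a factor binds there.

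**Figure D4:**
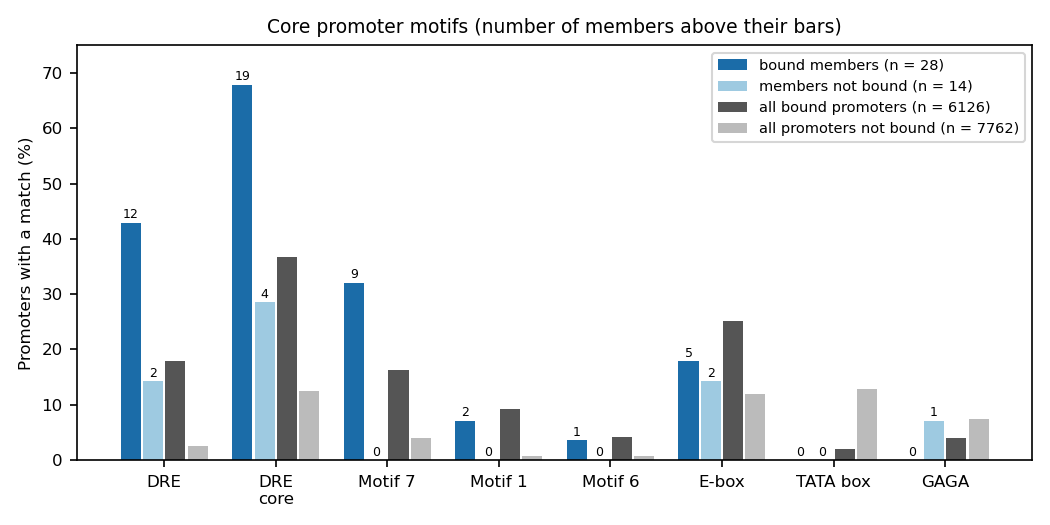
Share of promoters (vertical axis, percent) with a match to each of 8 core promoter motifs, from 250 bases before to 50 bases from the 5′-most TSS on, for bound members, unbound members, all bound promoters and all unbound promoters; numbers of members stand above their bars. The DRE is at 42.9% in bound members and 17.9% in all bound promoters, at 14.3% in unbound members and 2.6% in all unbound promoters, and the TATA box is at 0 in the members.

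Genes that act on or with these GTPases were bound in most lists. Together 60 of 70 were (85.7%), beside 44.1% of all genes, with a median signal of 186.3 beside 170.6. When a summit counted only for the nearest coding TSS, 54 of 70 were bound (77.1%), beside 35.7% of all genes. Of the prenylation and GDP-dissociation factors 3 of 4 were bound: both subunits of the geranylgeranyl transferase, RabGGTb (459.9) and RabGGTa (152), and the escort protein Rep (143), but not Gdi, which extracts GDP-bound Rabs. Of the Rab GEFs 6 of 9 were bound, led by Mon1 (655), which acts on Rab7, Rabex-5 (434), which acts on Rab5, and Rich (391), which acts on Rab6. Not bound were Crag, which was called in the list of replicate 2 alone, Rab3-GEF and Ccz1, the partner of Mon1. The Ccz1 peak had 217 and a −log10 IDR of 4.22 in the main ranking and 98.5 and 125 in the replicates, but it is absent from the main list. It is 1 of 212 ranked peaks past the threshold that the main list leaves out, and why they were left out is not stated.

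Of the Rab GAPs 10 of 11 were bound, led by Tbc1d15-17 (443), TBC1d7 (334) and Rab3-GAP (225). The bound GAP plx was called by the same peak as the member Rab23. With the nearest coding TSS only, 7 of 11 were bound (63.6%). RN-tre was not called in the main list but was in the lists of both replicates. Of the Arf GEFs 4 of 5 were, garz (386), Sec71 (153) and Efa6 (126) being the strongest, without siz, and of the Arf GAPs 6 of 7, led by CenG1A (1060), Asap (328) and Git (224), without CenB1A, which was called in replicate 2 alone. Endosomal and lysosomal effectors had 12 of 13, with the tethering subunit Vps16A at 598, the Rab5 effector Rbsn-5 at 436 and the lipid kinase Pi3K59F at 347, and without nuf, a Rab11 effector called in replicate 2 alone. All 10 Golgi effectors were bound, Golgin104 (528), Golgin245 (280.2) and Grasp65 (263) most strongly, and so were all 8 subunits of the exocyst, which tethers vesicles at the plasma membrane, with Sec10 at 392, Sec5 at 339 and Sec6 at 316. Of the 3 synaptic effectors 1 was bound. Rim, a scaffold of the active zone, had no promoter peak in any list, and Rph, rabphilin, had one of 31.2 in replicate 2, below the threshold. The bound gene, btsz (94.5), also acts in epithelia, and it was not called in the list of either replicate or in the conservative list.

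**Figure D5:**
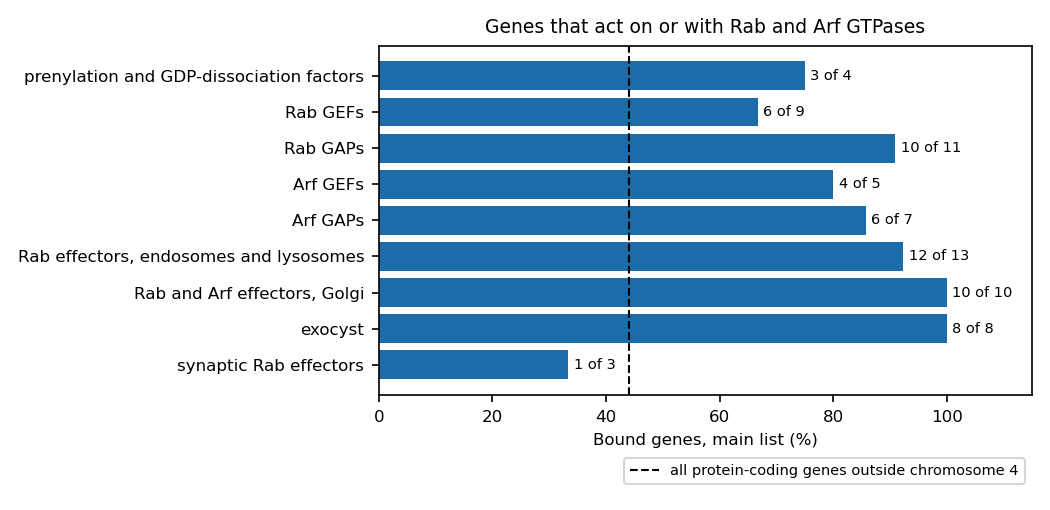
Share of bound genes in the main list (horizontal axis, percent) for 9 lists of genes that act on or with Rab and Arf GTPases, with counts beside the bars; the dashed line is the 44.1% of all protein-coding genes outside chromosome 4. The bars run from 33.3% for 3 synaptic effectors to 100% for Golgi effectors and the exocyst.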

How the data were processed

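ChIP-seq of MBD-R2-eGFP was made from sonicated chromatin (200 to 800 bp, per the labels' descriptions). The authors deposited peak lists on dm6, per the file headers and labels. No aligner, peak caller or setting is named in the labels or headers read here. Peak signal is the authors' value, of unstated scale, and is used to describe and rank peaks. The rankings hold the −log10 of the IDR as the authors deposited it. The main list held 7544 peaks, the conservative list 5704, and the lists of replicates 1 and 2 held 4113 and 7542. The ranking that holds every main-list peak had 100373. Depth is unknown, so no interval that needs it is given.

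Genes came from the Ensembl annotation of the same assembly, with Python 3.11.15. In the genome sequence 99.83% of annotated start codons read ATG, and no peak passed a chromosome end. Calls and motif searches were tested on simulated data. Every member is named, with peak positions for the 10 strongest (1 of these is not reported here), the tissue-restricted and the unbound housekeeping ones. Per pathway list the 3 strongest bound and up to 3 unbound genes are named. In the pathway lists 5 symbols matched through RefSeq synonyms and TBC1D22 and Rab11-FIP were not matched. The members, classes and lists were chosen with earlier results of these data known, so no test of a list was made. Alternatives were other lists, windows, TSS choices and assignments.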

Additional observations from a re-analysis of the deposited data

How the results depend on the processing

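The count of bound members was 28 of 42 and stayed within 1.5 times of it in all alternatives but one. Counting a summit only for the nearest protein-coding TSS left 17 of 42 (40.5%), beside 35.7% of all genes. Lost were Arf6, Arl2, Arl5, Arl8, Rab7, Rab10, Rab23, Rab27, Rab30, Rab39 and RabX1. The same setting left 13 of 21 housekeeping members bound (61.9%), with 2 tissue-restricted members and 1 unclassified member. In the replicates' own lists 2 to 4 tissue-restricted members were bound. With any peak before thresholding 7 tissue-restricted and 3 lineage-specific members counted, as did 76.9% of all genes. The median signal of bound members was 149.7 there, and 88.39 to 132.1 in the replicates' own lists, which have scales of their own. For housekeeping members the median was 95.95 to 133.7 in the replicates' lists, 234.3 in the conservative list and 240.9 in the stronger 50% of the peaks. Housekeeping counts, the pathway genes together, shared peaks and motif counts stayed within 1.5 times under the alternatives tried. Within that bound the housekeeping count still fell from 19 of 21 to the 13 above. In the stronger 50% of the peaks it was 14 of 21 (66.7%), beside 32.1% of all genes. Among single calls, Rab11 was lost in both replicates' lists and in the conservative list. Arf6, Rab32 and Sar1 were also lost in the conservative list. A window of 250 bp lost Arf6, Rab23 and Rab39, and one of 1000 bp added Rab26. The window of 1000 bp also took the signal of Rab4 from 70.35 to 152.74. No paired analysis was possible because there is 1 group. The unknown depth limits what an absent peak can show.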
